A study of Mus musculus with 12 samples.

Results

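The 10 genes studied here mark blood vessel endothelium or encode its receptors, and were followed through regeneration of dystrophic muscle: Pecam1, Cdh5, Emcn, Tie1, Tek, Kdr, Flt1, Eng, Aplnr and Pcdh12. They are 10 of the 28116 gene symbols measured, and all 10 were among the 14063 kept for testing because they reached 1 CPM (a read count scaled for the size of its library) in at least 3 of 12 libraries. Of these, 8 were picked as known endothelial genes, with earlier results of these data known. Aplnr and Pcdh12 were selected on a measured value, their lower level with the inhibitor at day 7. The day 7 difference between the arms is therefore given for all 10 as a description, without a test. RNA came from tibialis anterior muscle of mice of the strain C57BL/10ScSn-Dmdmdx/J, aged 4 months. All animals carry the mdx mutation, which removes functional dystrophin, so no group represents healthy muscle. Every muscle also received cardiotoxin, a venom toxin that kills muscle fibres and starts regeneration, and no uninjured group was analysed here. The 4 groups of 3 animals were anti-miR106b at day 7, anti-miR-Scrambled at day 7, anti-miR106b at day 3 and anti-miR-Scrambled at day 3 after injection, called anti-miR-106b and scrambled muscles here. The series' design text gives the later time once as day 5, whereas the label of every library says 3 or 7. Nothing in the labels says whether an animal gave muscles to more than 1 group.

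Endothelial cells line blood vessels and hold together through junction proteins such as VE-cadherin, the product of Cdh5. Their growth and stability are set by several ligand and receptor systems: VEGF acting on the receptors encoded by Kdr and Flt1, angiopoietins acting on Tek with its partner Tie1, BMP and TGF-beta ligands acting through receptor complexes that contain endoglin, and apelin acting on the receptor encoded by Aplnr. Muscle injured with cardiotoxin loses fibres, fills with macrophages and rebuilds its capillaries along the new fibres. A microRNA such as miR-106b lowers its target RNAs by pairing of its seed, bases 2 to 8, with sites that lie mostly in 3′ UTRs, and an anti-miR is an oligonucleotide that blocks that pairing.

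The sequences of the inhibited microRNA and of its close relatives are shown because they share a seed, and a seed site can be searched for in the members. Sequences are from RefSeq (GRCm38.p6), 5′ to 3′, with the seed in capitals. The miR-106b-5p sequence lies on the minus strand at chr5:138165787-138165807, beside miR-93-5p at chr5:138165574-138165596. The other two lie on the plus strand, miR-17-5p at chr14:115043684-115043706 and miR-20a-5p at chr14:115044183-115044205.
mmu-miR-106b-5p: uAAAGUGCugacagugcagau
mmu-miR-93-5p: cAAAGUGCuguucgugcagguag
mmu-miR-17-5p: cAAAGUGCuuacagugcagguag
mmu-miR-20a-5p: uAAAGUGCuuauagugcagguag

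The longest annotated 3′ UTR of each member (GENCODE M21) was searched on its own strand for 4 nested matches to this seed: GCACTTTA of 8 bases, GCACTTT and CACTTTA of 7 bases, and CACTTT of 6 bases. None of the 10 members held the 8-base match or GCACTTT. Eng held a single CACTTTA, which starts 182 bases after the stop codon, and 4 other members held the 6-base match alone: Aplnr with 2 copies, and Emcn, Flt1 and Pcdh12 with 1 copy each. Pecam1, Cdh5, Tie1, Tek and Kdr held none. Of 12915 kept genes with an annotated 3′ UTR, 21.99% had a match of at least 7 bases, 7.53% had CACTTTA as their best match, and 58.3% had none. The site in Eng is printed with its neighbours as the only match of 7 bases among the members, with the match in capitals (GRCm38, plus strand, chr2:32681731-32681760). A match is a run of letters and was not tested as a binding site.
Eng 3′ UTR site: atctcctcacccCACTTTAcagaactgccc

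Libraries held 28857739 to 42825246 reads, and the members had 164 to 2713 reads per library. A single read was worth 0.0213 to 0.0356 CPM. Mitochondrial transcripts took 9.94% to 10.7% of reads in anti-miR-106b muscles and 8.18% to 10.5% in scrambled muscles at day 7. At day 3 they took 4.80% to 4.83% in anti-miR-106b muscles and 7.54% to 7.76% in scrambled muscles, so this share separated the day 3 arms. Markers of other cells also differed between the groups. The summed level of 8 mature fibre genes was 169511 to 188022 CPM in anti-miR-106b muscles and 182258 to 194441 CPM in scrambled muscles at day 7. At day 3 it was 63148 to 69468 CPM in anti-miR-106b muscles and 96278 to 114479 CPM in scrambled muscles. The summed level of 10 macrophage genes was 434 to 674 CPM in anti-miR-106b muscles and 401 to 637 CPM in scrambled muscles at day 7, and at day 3 it was 4559 to 4979 CPM in anti-miR-106b muscles and 3288 to 3350 CPM in scrambled muscles. The part of the mitochondrial share and of these shifts in the results for the endothelial genes was not tested. In whole muscle, fewer endothelial cells and less RNA per endothelial cell cannot be told apart.

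At day 3 the endothelial genes divided into those that were higher with the inhibitor and those that were not. Eng, Aplnr, Emcn and Pecam1 rose in anti-miR-106b muscles relative to scrambled muscles, by 1.20-fold to 1.51-fold. Of all genes tested, 16.3% passed as higher and 19.4% as lower. None passed as lower in the main fit. Kdr, Flt1 and Tek lay below every scrambled muscle without passing, and 29.3% of all genes were apart with the inhibitor lower. These 3 passed as lower when the day 3 libraries were fitted alone (adjusted p = 0.00558, 0.0123 and 0.0291, limma). Scaled by total reads their differences were -0.09, -0.05 and -0.002 (log2). Between the days, taken as the mean of both arms, 9 of the 10 passed as higher at day 7, against 39.9% of all genes. Eng passed as lower, against 42.1% of all genes. Of the 9, 5 turned below 0 when libraries were scaled by total reads. At day 7 all 10 had a lower mean in anti-miR-106b muscles than in scrambled muscles, against 48.2% of all genes. Aplnr and Pcdh12 had been chosen for this direction.

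**Figure D1:**
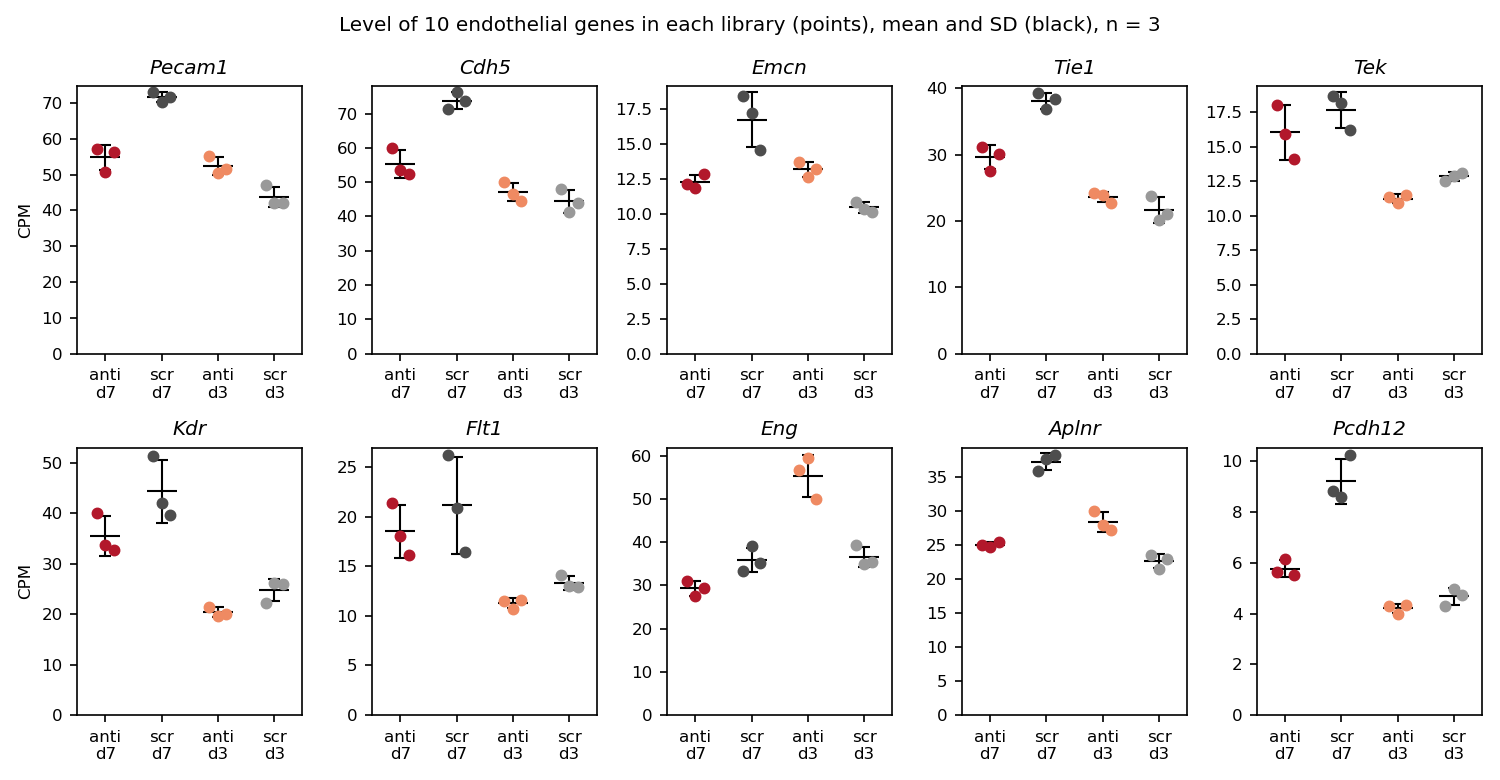
Level of each of the 10 genes in every library (CPM, vertical axis from 0), with 1 point per muscle and the mean and SD of each group of 3 in black, for anti-miR-106b and scrambled muscles at day 7 and at day 3. Aplnr, Emcn, Pecam1 and Eng are higher in anti-miR-106b than in scrambled muscles at day 3 and lower at day 7, without overlap on either day. The share of all genes that reverse in this way was not counted.

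Pecam1 encodes PECAM-1, an adhesion molecule at the borders between endothelial cells that platelets and leukocytes also carry (GRCm38 chr11:106654217-106750628, minus strand). At day 7 it had 57.3, 50.7 and 56.5 CPM in anti-miR-106b muscles, against 73.1, 70.2 and 71.8 CPM in scrambled muscles. At day 3 it had 55.2, 50.5 and 51.6 CPM in anti-miR-106b muscles, against 47.0, 42.1 and 42.1 CPM in scrambled muscles. The arms did not overlap on either day, and the order of the arms was opposite on the 2 days. The day 3 difference was 0.26 ± 0.07 (log2, SE) with an adjusted p of 0.00945 by limma. Day 7 exceeded day 3 by 0.39 ± 0.05 (adjusted p = 3.76e-06, limma), although the days overlapped because anti-miR-106b muscles at day 7 lay near those at day 3. Scaled by total reads the time difference was -0.13, which is 0.40 above the median of all genes under that scaling.

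Cdh5 encodes VE-cadherin, the cadherin of endothelial junctions (chr8:104101625-104144511, plus strand). Cdh5 levels at day 7 were 59.9, 53.5 and 52.3 CPM in anti-miR-106b muscles, against 71.4, 76.3 and 73.7 CPM in scrambled muscles. The levels at day 3 were 50.1, 46.7 and 44.6 CPM in anti-miR-106b muscles, against 47.9, 41.4 and 44.0 CPM in scrambled muscles. Here the arms were apart at day 7 alone, and at day 3 they overlapped. The day 3 difference of 0.09 ± 0.07 did not pass (adjusted p = 0.385, limma). Day 7 was higher by 0.48 ± 0.05 (adjusted p = 9.79e-07, limma), with no overlap between the days, but the difference was -0.04 by total reads, 0.49 above the median of all genes.

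Emcn encodes endomucin, a sialomucin of venous and capillary endothelium (chr3:137341067-137432185, plus strand). Its levels at day 7 were 12.1, 11.9 and 12.9 CPM in anti-miR-106b muscles, against 18.4, 17.2 and 14.6 CPM in scrambled muscles. At day 3 they were 13.7, 12.6 and 13.2 CPM in anti-miR-106b muscles, against 10.8, 10.4 and 10.1 CPM in scrambled muscles. As for Pecam1, the arms were separate on both days and in opposite order, and the scrambled muscles at day 7 spread the most. The difference at day 3 was 0.34 ± 0.09 (adjusted p = 0.0102, limma). The time difference of 0.29 ± 0.06 (adjusted p = 0.00076, limma) was the mean of unlike arms: the change was -0.10 in anti-miR-106b muscles and 0.67 in scrambled muscles. By total reads it turned to -0.23, 0.30 above the median of all genes.

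Pcdh12 encodes protocadherin 12, an adhesion molecule of endothelial junctions and the least abundant member. At day 7 it had 5.63, 6.16 and 5.53 CPM in anti-miR-106b muscles, against 8.84, 8.58 and 10.2 CPM in scrambled muscles. At day 3 it had 4.29, 3.98 and 4.33 CPM in anti-miR-106b muscles, against 4.31, 4.97 and 4.75 CPM in scrambled muscles. The day 7 difference, -0.67 on the log2 scale, was one of the values that chose the gene, whereas at day 3 the arms overlapped and the difference was -0.15 ± 0.10 (adjusted p = 0.261, limma; 0.04 by total reads). Day 7 exceeded day 3 by 0.72 ± 0.07 (adjusted p = 4.39e-07, limma), and every muscle at day 7 was above every muscle at day 3. That comparison includes the day 7 libraries on which the gene was chosen.

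Tie1 encodes an orphan receptor kinase that modulates signalling by Tek (chr4:118471191-118490061, minus strand). Tie1 levels at day 7 were 31.2, 27.6 and 30.1 CPM in anti-miR-106b muscles, against 39.3, 36.8 and 38.4 CPM in scrambled muscles. The levels at day 3 were 24.3, 23.9 and 22.7 CPM in anti-miR-106b muscles, against 23.8, 20.2 and 21.02 CPM in scrambled muscles. It behaved as Cdh5 did, with separate arms at day 7 and overlapping arms at day 3, where the difference was 0.13 ± 0.08 (adjusted p = 0.200, limma). Day 7 was higher by 0.57 ± 0.05 (adjusted p = 1.7e-07, limma) with no overlap of the days, and by total reads the difference of 0.06 did not pass (adjusted p = 0.374).

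Tek encodes TIE2, the angiopoietin receptor (chr4:94739289-94874976, plus strand). Its levels at day 7 were 18.04, 16.0 and 14.1 CPM in anti-miR-106b muscles, against 18.7, 18.1 and 16.2 CPM in scrambled muscles. At day 3 they were 11.3, 10.9 and 11.5 CPM in anti-miR-106b muscles, against 12.5, 12.9 and 13.1 CPM in scrambled muscles. In contrast to Tie1, the arms were apart at day 3, with the inhibitor lower, and overlapped at day 7. At -0.19 ± 0.09, the difference at day 3 did not pass (adjusted p = 0.118, limma). It passed with the day 3 libraries fitted alone (adjusted p = 0.0291, limma) and with library weights (0.00269). By total reads the day 3 difference was -0.002. Day 7 was higher by 0.48 ± 0.06 (adjusted p = 8.29e-06, limma) with no overlap of the days, and the difference was -0.03 by total reads, 0.49 above the median of all genes.

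Kdr encodes VEGFR2, the main signalling receptor for VEGF-A (chr5:75932827-75978458, minus strand). At day 7 it had 40.0, 33.8 and 32.8 CPM in anti-miR-106b muscles, against 51.5, 42.1 and 39.6 CPM in scrambled muscles. At day 3 it had 21.5, 19.7 and 20.0 CPM in anti-miR-106b muscles, against 22.3, 26.1 and 26.0 CPM in scrambled muscles. All 3 anti-miR-106b muscles were lower at day 3, while at day 7 the ranges just met. The day 3 difference was -0.28 ± 0.11 and narrowly missed the threshold (adjusted p = 0.0533, limma). It passed by limma without scrambled day 3 replicate 1 (adjusted p = 0.0311) and without anti-miR-106b day 7 replicate 1 (0.0391). Leaving out replicate 1 (0.0207) or replicate 3 (0.0387) of the scrambled muscles at day 7 had the same effect. With any other library left out Kdr did not pass at day 3, and the adjusted p reached 0.165 (limma). Over all omissions the difference ranged from -0.35 to -0.24. Fitted on the day 3 libraries alone it passed (adjusted p = 0.00558, limma), and by total reads it was -0.09. Kdr had the largest time difference of the 10, 0.82 ± 0.07 (adjusted p = 1.41e-07, limma), nearly equal in both arms at 0.80 in anti-miR-106b muscles and 0.83 in scrambled muscles.

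Flt1 encodes VEGFR1, which binds VEGF-A, VEGF-B and placental growth factor and also has a soluble form that captures them (chr5:147561604-147726011, minus strand). Flt1 levels at day 7 were 21.4, 18.1 and 16.1 CPM in anti-miR-106b muscles, against 26.2, 20.8 and 16.4 CPM in scrambled muscles. The levels at day 3 were 11.5, 10.7 and 11.6 CPM in anti-miR-106b muscles, against 14.1, 13.0 and 12.9 CPM in scrambled muscles. The muscles at day 7 were spread widely and overlapped, whereas at day 3 the inhibitor muscles were all lower. The day 3 difference was -0.24 ± 0.14 and did not pass (adjusted p = 0.193, limma). It passed with the day 3 libraries fitted alone (adjusted p = 0.0123, limma) and with library weights (0.0157). By total reads the day 3 difference was -0.05. Day 7 exceeded day 3 by 0.67 ± 0.10 (adjusted p = 2.09e-05, limma) with no overlap. By total reads the time difference was 0.16 and did not pass (adjusted p = 0.142, limma). The table gives 1 value per gene symbol, so the membrane and soluble forms cannot be told apart.

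Eng encodes endoglin, a co-receptor for BMP9, BMP10 and TGF-beta that activated macrophages and stromal cells also make (chr2:32646595-32682669, plus strand). At day 7 it had 30.9, 27.5 and 29.5 CPM in anti-miR-106b muscles, against 33.4, 39.0 and 35.2 CPM in scrambled muscles. At day 3 it had 56.7, 59.5 and 49.99 CPM in anti-miR-106b muscles, against 39.2, 34.99 and 35.3 CPM in scrambled muscles. The anti-miR-106b muscles at day 3 stood above the other 9 muscles, which lay between 27.5 and 39.2 CPM. The day 3 difference of 0.60 ± 0.08, or 1.51-fold, was the largest of the 10 (adjusted p = 2.26e-04, limma). Eng was the only member lower at day 7, by -0.47 ± 0.06 (adjusted p = 4.35e-06, limma), and the change was -0.92 in anti-miR-106b muscles but -0.03 in scrambled muscles. Exons of Eng overlap exons of Fpgs on the opposite strand, and since strand-specific counting is not stated, reads of the overlap cannot be assigned to either gene. The macrophage sum stood highest in the same anti-miR-106b muscles at day 3 and its part in the Eng result was not tested.

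Aplnr encodes the apelin receptor, a G protein-coupled receptor of sprouting and venous endothelium (chr2:85136225-85139923, plus strand). Its levels at day 7 were 25.03, 24.7 and 25.5 CPM in anti-miR-106b muscles, against 36.0, 37.7 and 38.3 CPM in scrambled muscles. At day 3 they were 30.1, 28.0 and 27.2 CPM in anti-miR-106b muscles, against 23.5, 21.5 and 22.9 CPM in scrambled muscles. The replicates were tight and the arms were separate on both days, in opposite order. The day 3 difference, which did not choose the gene, was 0.33 ± 0.06 (adjusted p = 0.00172, limma). Its SE rests on the spread shared by the 12 libraries, so this p is not independent of the choice. Day 7 exceeded day 3 by 0.27 ± 0.05 (adjusted p = 7.28e-05, limma), the mean of -0.18 in anti-miR-106b muscles and 0.72 in scrambled muscles. By total reads it was -0.25, 0.28 above the median of all genes. As for Pcdh12, the comparison includes the day 7 libraries on which the gene was chosen.

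Read together at day 3, 4 of 10 members passed as higher, against 16.3% of all genes tested, and none passed as lower, against 19.4% of all genes. Of all genes, 35.7% passed in either direction, so at day 3 a call was common. The members were chosen with earlier results of these data known, so the counts are not a test of the set. The same 4 members had arms that did not overlap with the inhibitor higher, against 31.2% of all genes, and Tek, Kdr and Flt1 had arms that did not overlap with the inhibitor lower, against 29.3%. The median difference of the 10 was 0.11 (log2), against 0.01 for all genes. At an unadjusted p below 0.05 Kdr alone was lower, and with voom weights in limma it was 1 lower call. Each of the 4 higher calls was kept in every setting tried, and Cdh5 and Tie1 joined them (6 in all) by total reads and with library weights, whereas the count of lower calls ranged from 0 to 4.

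This time comparison uses the same day 7 libraries on which Aplnr and Pcdh12 were chosen. The mean of both arms is orthogonal to the difference between the arms that chose them, but the fit shares 1 spread over the 12 libraries. The p values of these 2 genes are therefore not independent of the choice. All members were also chosen with earlier results of these data known. Between the days, 9 of 10 members passed as higher at day 7, against 39.9% of all genes, and 1 passed as lower, against 42.1% of all genes. For 6 of them, Cdh5, Tie1, Tek, Kdr, Flt1 and Pcdh12, every muscle at day 7 was above every muscle at day 3, against 29.0% of all genes. The median time difference was 0.48, against -0.01 for all genes. These directions are relative to the authors' scaling. Scaling by total reads lowered the median of all genes to -0.53 in this comparison and raised it to 0.20 at day 3, and under it 2 members passed as higher at day 7 and 4 as lower. Differences relative to the median of all genes, 0.28 to 0.83 for the 9 and -0.46 for Eng, are nearly the same under both scalings by construction and say nothing about which scaling is right.

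At day 7 the differences between the arms ran from -0.67 for Pcdh12 to -0.15 for Tek. Some of the smaller ones moved with single libraries. With 1 library left out Tek ranged from -0.23 (anti-miR-106b replicate 1) to -0.06 (anti-miR-106b replicate 3), Flt1, at -0.18, from -0.34 (scrambled replicate 3) to -0.01 (scrambled replicate 1), and Kdr, at -0.32, from -0.41 (anti-miR-106b replicate 1) to -0.21 (scrambled replicate 1). The median of the 10 was -0.38, against 0.01 for all genes, and in 7 of the 10 the arms did not overlap: Pecam1, Cdh5, Emcn, Tie1, Eng, Aplnr and Pcdh12. Of all genes, 5.69% had arms that did not overlap with the inhibitor lower, and 0.0569% passed as lower (8 genes). Because this comparison chose 2 of the members, nothing is read from these counts. Among the 10, Pcdh12 lay just inside an adjusted p of 0.05 in this comparison (0.0376, limma), and Pecam1 lay just outside (0.0540). These values describe the choice of the members and are not tests of them. In fold terms the inhibitor muscles held 0.628 times the Pcdh12 level and 0.672 times the Aplnr level of the scrambled muscles.

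**Figure D2:**
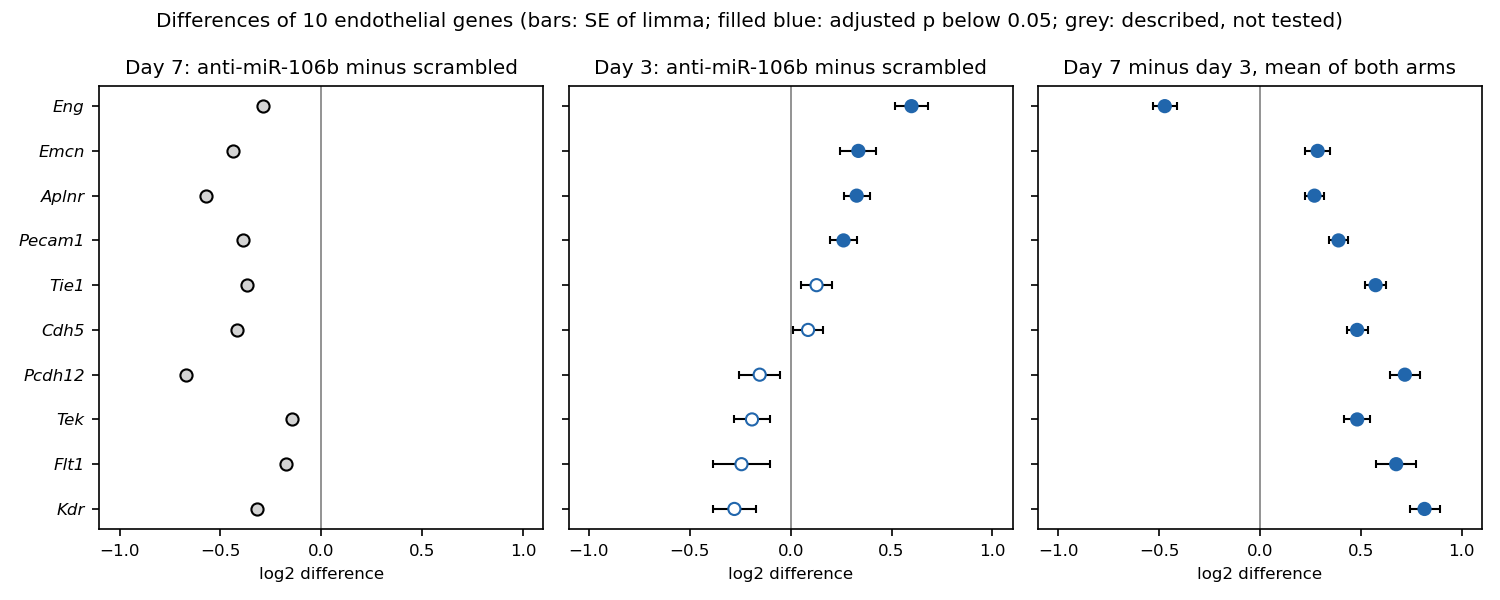
Log2 differences of the 10 genes in 3 panels, anti-miR-106b minus scrambled at day 7 (a description, no test), anti-miR-106b minus scrambled at day 3, and day 7 minus day 3 as the mean of both arms, with bars of 1 standard error in the tested panels and filled blue points where the adjusted p is below 0.05. All 10 are below 0 at day 7, 6 are above 0 at day 3, and 9 are above 0 over time, of which 5 (Pecam1, Cdh5, Emcn, Tek and Aplnr) fall below 0 if libraries are scaled by total reads.

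The arms took different courses between the days, given as a description because the day 7 libraries chose 2 members. In anti-miR-106b muscles the median change of the 10 was 0.28, ranging from -0.92 for Eng to 0.80 for Kdr, and 3 members (Eng, Aplnr and Emcn) were lower at day 7. In scrambled muscles the median change was 0.72, up to 0.98 for Pcdh12, and only Eng, at -0.03, was below 0. The difference between the courses was -0.90 for Aplnr, -0.89 for Eng, -0.77 for Emcn and -0.65 for Pecam1. It was between -0.52 and -0.49 for Pcdh12, Cdh5 and Tie1. For the VEGF receptors and Tek it was close to 0, at -0.04 for Kdr, 0.05 for Tek and 0.07 for Flt1.

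Each of the other members was also expressed as a log2 ratio to the mean of Pecam1 and Cdh5 in the same library. This mean is not a measure of endothelial content. At day 3 Pecam1 was itself higher with the inhibitor, by 0.26, while the difference of 0.09 for Cdh5 did not pass. At day 3 the ratio of Eng was 0.15 ± 0.12 in anti-miR-106b muscles and -0.27 ± 0.01 in scrambled muscles (SD, n = 3 each). The ratio of Kdr at day 3 was -1.28 ± 0.02 in anti-miR-106b muscles and -0.83 ± 0.23 in scrambled muscles, and that of Flt1 was -2.14 ± 0.08 in anti-miR-106b muscles and -1.72 ± 0.03 in scrambled muscles. Relative to these junction genes Eng stood higher and both VEGF receptors stood lower with the inhibitor at day 3, with no overlap. Aplnr and Emcn had higher ratios, by 0.15 and 0.16, and Tek and Pcdh12 had lower ratios, by -0.37 and -0.33, again without overlap, while Tie1 overlapped. At day 7 the ratios of Tek and Aplnr alone did not overlap, and both differed in the direction opposite to day 3: the ratio of Tek was -1.78 ± 0.14 in anti-miR-106b muscles and -2.04 ± 0.11 in scrambled muscles, and that of Aplnr was -1.13 ± 0.08 in anti-miR-106b muscles and -0.96 ± 0.04 in scrambled muscles. Emcn, Tie1, Kdr, Flt1, Eng and Pcdh12 had overlapping ratios at day 7. A gene's ratio does not depend on the library scaling, and it shows unequal change, not which gene moved. The share of all genes with ratios that do not overlap was not counted, so the separations are not read as particular to the members. In plain levels at day 3, 31.2% of all genes were apart with the inhibitor higher and 29.3% with it lower.

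**Figure D3:**
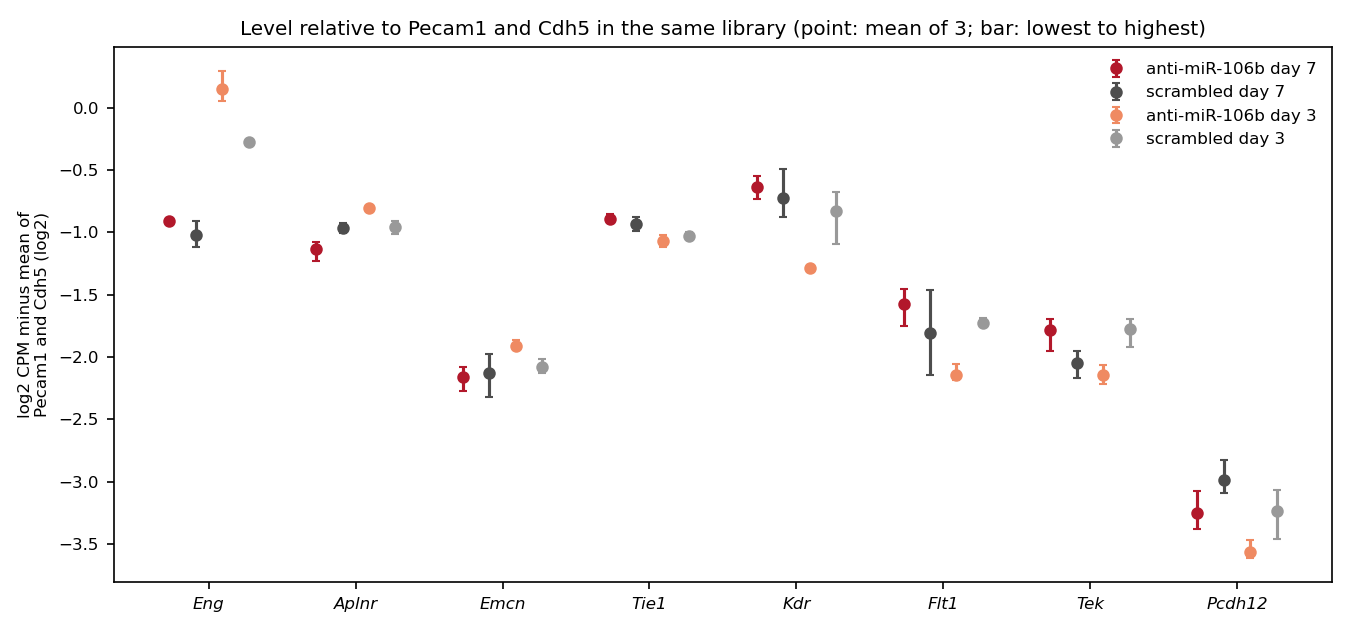
Log2 ratio of each of 8 members to the mean of Pecam1 and Cdh5 in the same library (vertical axis), with a point at the mean of 3 muscles and a bar from the lowest to the highest, for anti-miR-106b and scrambled muscles at day 7 and at day 3. The Eng ratio at day 3 is 0.06 to 0.29 in anti-miR-106b muscles and -0.28 to -0.26 in scrambled muscles, and at day 7 it lies between -1.11 and -0.88 in both arms.

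Compared per length, as CPM per kilobase of annotated exon, Cdh5 had the highest level in 3 of the 4 groups. In anti-miR-106b muscles at day 7 it stood at 13.1 ± 0.97, followed by Pecam1 at 8.80 ± 0.57. Eng and Aplnr came next, and these neighbours overlapped. In scrambled muscles at day 7 the order was Cdh5 at 17.6 ± 0.58, Pecam1 at 11.5, Aplnr at 10.1, Eng at 8.86, Tie1 at 7.76, Kdr at 4.92, Tek at 3.75, Emcn at 3.09, Flt1 at 1.57 and Pcdh12 at 1.52, of which the last pair alone overlapped. Eng led in anti-miR-106b muscles at day 3 with 13.7 ± 1.2, above Cdh5 with 11.2 ± 0.65, and this pair did not overlap. There Pecam1 and Aplnr overlapped, as did Emcn with Tek and Tek with Kdr. In scrambled muscles at day 3 Cdh5 led with 10.6 ± 0.78 and Eng followed with 9.02 ± 0.58. Flt1 and Pcdh12 had the lowest levels per length in each group.

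The profiles of the 10 genes over the 12 libraries were compared by the root mean square of the difference between log2 profiles, each centred on its own mean. Cdh5 and Tie1 were the most alike, with 0.077. The VEGF receptors Kdr and Flt1 differed by 0.142, and the most unlike pair was Kdr and Eng. Cdh5 and Pecam1 lay nearest to the mean profile of the 10, at 0.063 and 0.080, and Eng lay farthest at 0.490, beyond the median of all genes of 0.387. Outside the set, the gene nearest to the mean profile was Fgd5, a guanine nucleotide exchange factor of endothelial cells, at 0.060. Next came Itga1 at 0.084, Esam, an endothelial junction protein, at 0.085, Kank3 at 0.087 and Robo4, an endothelial guidance receptor, at 0.094. Zfp446, Adgrl4, Sox17, Nr2f2 and Fam110b followed at 0.095 to 0.101. Nearest to Aplnr were Pcdh1 at 0.096, the endothelial Notch receptor Notch4 at 0.0999 and the arterial transcription factor Sox17 at 0.111. Nearest to Pcdh12 were Ltbp4 at 0.129, Sox7 at 0.140 and Ushbp1 at 0.157.

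At day 3 the ligands of these receptors had differences from -0.91 to 1.44 (log2), against -0.28 to 0.60 for the 10 members. Of 9 kept ligand genes, 4 rose with the inhibitor, against 16.3% of all genes, and 3 fell, against 19.4%. Pgf, placental growth factor and a ligand of Flt1, rose by 1.44 ± 0.20 (log2), Apln, the ligand of Aplnr, by 1.19 ± 0.19, Angpt2, a context-dependent antagonist of Tek, by 0.75 ± 0.18, and Tgfb1 by 0.63 ± 0.13. Vegfa, the main ligand of Kdr, fell by 0.91 ± 0.13, and Vegfb, a ligand of Flt1, fell by 0.60 ± 0.13. The third to fall was the Tek agonist Angpt1, at -0.61, which was named after its value was seen. The adjusted p values of the named ligands were at most 0.00518 by limma. Vegfa and Vegfb are also made by muscle fibres, whose genes were lower in the same muscles, and the part of the fibres was not tested. Between the days Vegfa and Vegfb were higher at day 7 by 1.55 ± 0.09 and 1.21 ± 0.09, and Pgf and Tgfb1 were lower, at -1.34 and -2.05. At day 7, as a description, Apln was -0.58 and Angpt2 -0.38 between the arms, with overlap.

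Of 20 co-receptors and signalling partners, 7 rose at day 3, against 16.3% of all genes, and 2 fell, against 19.4%. Those with the smallest p were Nrp2, a co-receptor for VEGF-C and semaphorins, at 0.48 ± 0.07, Acvrl1, the ALK1 receptor that works with endoglin, at 0.48 ± 0.10, Ctnnd1, the p120 catenin that holds VE-cadherin at junctions, at 0.42 ± 0.09, and Bmpr2, the type II receptor of that complex, at -0.47 ± 0.09. Acvrl1 thus rose with Eng at day 3 while Bmpr2 fell. Between the days Acvrl1 was lower at day 7 by -0.80 and Nrp2 by -0.78, whereas Bmpr2 was higher by 0.77 and Ptprb, the phosphatase that restrains Tek, by 0.73. All of these passed at an adjusted p below 0.05 by limma.

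A list of 27 other endothelial genes was set beside the members. At day 3, 10 rose, against 16.3% of all genes, and 1 fell, against 19.4%. The median difference was 0.17, against 0.01 for all genes. Among those with the smallest p, Ecscr rose by 0.60 ± 0.15, Icam2 by 0.53 ± 0.13, Plvap, the diaphragm protein of fenestrated endothelium, by 0.52 ± 0.07 and Cd93 by 0.37 ± 0.10, all with an adjusted p of at most 0.00882 by limma. The number that rose was 5 without anti-miR-106b day 3 replicate 1, 5 without replicate 2 of that group and 6 without scrambled day 3 replicate 2. The 1 gene that fell was Ptprm, at -0.27, and the number that fell was 0 without anti-miR-106b day 3 replicate 2 or 3, without scrambled day 3 replicate 2 and by total reads. It was 2 without scrambled day 3 replicate 1 or scrambled day 7 replicate 1, and 4 with library weights. Between the days 17 of the 27 were higher at day 7, against 39.9% of all genes, and 5 were lower, against 42.1%. The median was 0.35, and by total reads 4 were higher and 14 lower. At day 7 all 27 had a lower mean in anti-miR-106b muscles, against 48.2% of all genes, with a median of -0.31. In 17 the arms did not overlap, against 5.69% of all genes with the inhibitor lower. The 27 genes were not chosen on the day 7 value by the rule of the set. However, the list was written with earlier results of the data known.

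Markers of vessel subtypes were counted in the same way, with no test between them. Of all genes, 16.3% rose and 19.4% fell at day 3, and 42.1% were lower at day 7 than at day 3. A lower mean with the inhibitor at day 7 was found in 48.2% of all genes. Of 9 arterial genes, 4 rose and 2 fell at day 3, with Gja5, the connexin of arterial endothelium, up by 0.67 ± 0.16 (adjusted p = 0.00660, limma), and all 9 had a lower mean with the inhibitor at day 7, median -0.34. Of 10 venous and capillary genes, 1 rose at day 3, Ephb4 by 0.40 ± 0.07 (adjusted p = 0.00125, limma), and 1 fell, Car4, a capillary carbonic anhydrase, at -0.73 ± 0.20. The Car4 call was lost without anti-miR-106b day 3 replicate 2 (adjusted p = 0.0570, limma) and without scrambled day 3 replicate 3 (0.0536). Both arterial genes that fell, Dll4 at -0.34 and Jag1 at -0.28, and the arterial Notch4, which rose by 0.41, no longer passed without scrambled day 3 replicate 2 (adjusted p = 0.134, 0.0832 and 0.0740, limma). Dll4 was also lost without anti-miR-106b day 3 replicate 3 (0.150) and, in the scrambled arm, without day 3 replicate 1 (0.0724), Jag1 without anti-miR-106b day 3 replicate 1 (0.112) and, in the scrambled arm, without day 3 replicate 3 (0.102), and Notch4 without anti-miR-106b day 3 replicate 1 (0.0654). At day 7 the median of the venous and capillary genes was -0.10. Of 12 tip cell and angiogenesis genes, 6 rose at day 3, among them Cxcr4 by 0.68 ± 0.15 (adjusted p = 0.00350, limma), and 7 were lower at day 7 than at day 3. The time difference of Cxcr4 was -2.48, against a median of -2.79 for the macrophage genes and 0.48 for the members. The part of other cells in the Cxcr4 values was not tested. None of 7 lymphatic genes passed at day 3 by limma, where the smallest adjusted p was 0.113, for Ccl21a, and 0 had an unadjusted p below 0.05. The median of the lymphatic genes at day 7 was 0.07.

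Other cell types moved as well. Of all genes, 16.3% rose and 19.4% fell at day 3, and between the days 39.9% were higher and 42.1% lower. In the day 7 difference between the arms, 48.2% of all genes were below 0. Arms without overlap and with the inhibitor lower were found in 5.69%. At day 3, 8 of 8 mature fibre genes fell, with a median of -0.72, 5 of 10 macrophage genes rose, with a median of 0.46, and 4 of 12 pericyte and smooth muscle genes rose while 1 fell. Tagln, a smooth muscle gene, rose by 0.87 ± 0.13, Pdgfrb, a pericyte and fibroblast receptor, by 0.45 ± 0.08, and Abcc9, an ATP-sensitive potassium channel subunit of pericytes and muscle, fell by 0.70 ± 0.08 (adjusted p at most 0.00131, limma). Of 6 platelet genes 2 were kept, of which Pf4, made by platelets and by macrophages, rose by 0.73 ± 0.10 (adjusted p = 2.03e-04, limma). Of 7 fibroblast genes 1 rose, and of 6 cell division genes 1 rose. Between the days the 8 fibre genes were higher, with a median of 1.23, and the 10 macrophage genes were lower, with a median of -2.79. At day 7, where the endothelial means were lower with the inhibitor, the fibre median was -0.08, the macrophage median was 0.10 and the pericyte and smooth muscle median was -0.16, with 8 of 12 of these mural genes below 0 and 2 without overlap, Rgs5 at -0.23 and Notch3 at -0.19. Notch3 was named after its value was seen. The part of these cells in the endothelial values was not tested.

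**Figure D4:**
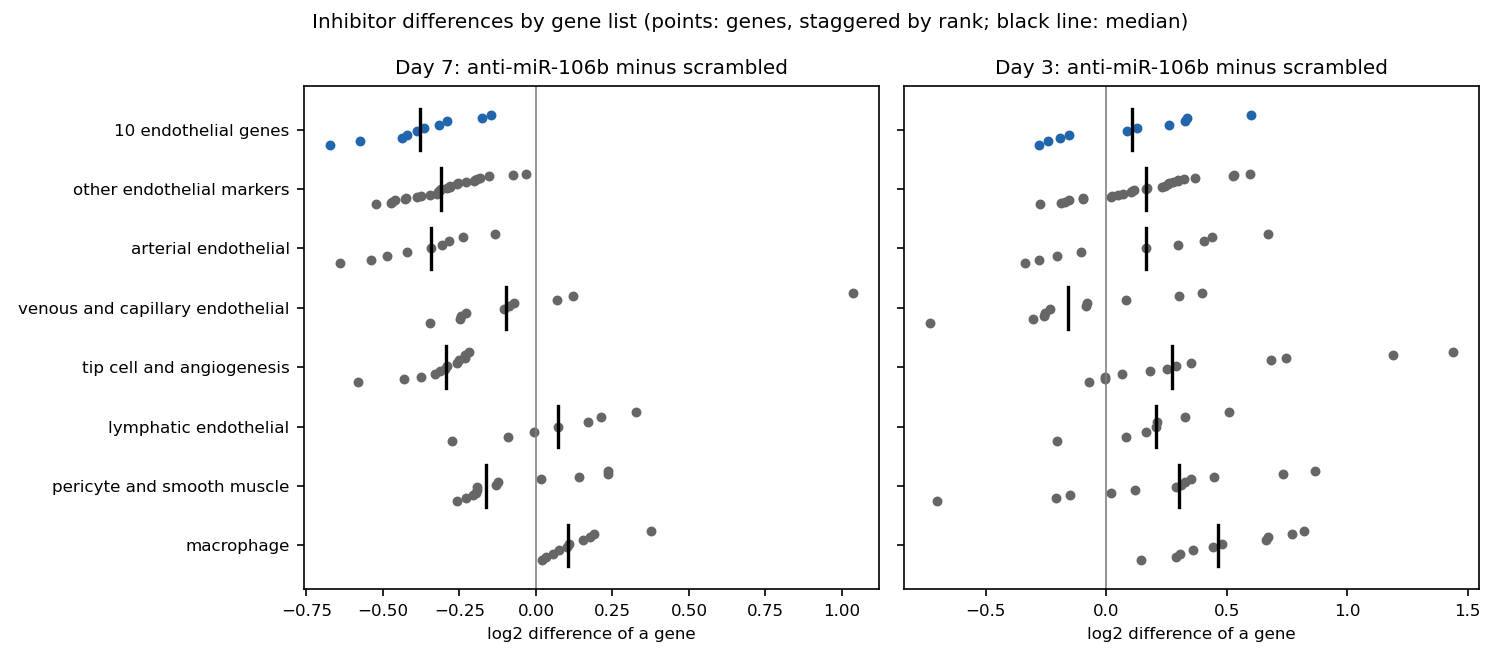
Log2 differences of the kept genes of 8 lists, anti-miR-106b minus scrambled, in panels for day 7 and day 3 (horizontal axes, with different ranges), with 1 point per gene and a black line at the list median. The medians of the 10 members and of the 27 other endothelial genes are -0.38 and -0.31 at day 7 and 0.11 and 0.17 at day 3, while those of the macrophage genes are 0.10 at day 7 and 0.46 at day 3.

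Promoters are shown for 4 members. Tie1 and Emcn were chosen for the most copies of the motif below, Kdr for the largest rise over time and Eng for its fall over time. ETS factors, which act at many endothelial genes, bind around the core AGGAA or CGGAA. Windows of 300 bases, 250 before and 50 after the gene's start, were taken from RefSeq (GRCm38.p6) and searched on both strands. Of the 10 members 6 were matched, with 6 copies in Emcn, 5 in Tie1, 3 in Eng and 2 each in Tek, Kdr and Flt1. Of 32851 promoter windows 78.0% held at least 1 copy, with a median of 1, 47.8% held at least 2, 23.6% held at least 3 and 3.84% held at least 5. Copies are in capitals, as AGGAA or CGGAA or as their reverse complements TTCCT or TTCCG, and are runs of letters and not tested sites. The windows lie at chr3:137340828-137341127 on the plus strand for Emcn, chr4:118489800-118490099 on the minus strand for Tie1, chr5:75978406-75978705 on the minus strand for Kdr and chr2:32646345-32646644 on the plus strand for Eng.
Emcn promoter: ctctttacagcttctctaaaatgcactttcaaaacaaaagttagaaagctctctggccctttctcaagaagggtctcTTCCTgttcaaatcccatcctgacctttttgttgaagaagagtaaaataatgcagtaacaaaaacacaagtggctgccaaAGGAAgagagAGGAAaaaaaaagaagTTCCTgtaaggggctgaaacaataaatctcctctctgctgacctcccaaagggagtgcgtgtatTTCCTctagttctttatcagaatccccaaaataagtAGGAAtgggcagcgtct
Tie1 promoter: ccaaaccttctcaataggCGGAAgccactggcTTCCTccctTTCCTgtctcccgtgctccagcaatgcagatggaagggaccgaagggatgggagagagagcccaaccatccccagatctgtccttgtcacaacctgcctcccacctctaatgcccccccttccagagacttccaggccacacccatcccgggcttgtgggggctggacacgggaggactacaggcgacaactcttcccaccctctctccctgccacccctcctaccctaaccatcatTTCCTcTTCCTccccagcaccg
Kdr promoter: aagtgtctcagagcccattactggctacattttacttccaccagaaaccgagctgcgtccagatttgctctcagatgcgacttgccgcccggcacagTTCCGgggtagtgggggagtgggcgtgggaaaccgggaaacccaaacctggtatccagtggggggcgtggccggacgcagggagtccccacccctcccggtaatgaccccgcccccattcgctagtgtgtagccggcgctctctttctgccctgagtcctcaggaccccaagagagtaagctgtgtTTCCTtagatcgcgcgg
Eng promoter: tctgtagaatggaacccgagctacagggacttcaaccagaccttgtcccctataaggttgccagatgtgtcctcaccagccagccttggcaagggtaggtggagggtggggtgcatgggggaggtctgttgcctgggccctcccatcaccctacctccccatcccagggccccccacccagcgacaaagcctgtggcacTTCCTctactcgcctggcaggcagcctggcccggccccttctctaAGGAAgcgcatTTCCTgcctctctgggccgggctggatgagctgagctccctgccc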

How the data were processed

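RNA of 12 muscles was sequenced from TruSeq libraries, per the labels' protocols. The submitters' processing notes name limma 3.34.9 and edgeR 3.20.9, the counter featureCounts, the aligner STAR, the trimmer Trim Galore 0.4.3.1 and FastQC 0.72, on the mouse build mm10, without their order or settings. The authors deposited log2 CPM for 28116 gene symbols. Removing the logarithm gave whole reads for every value within 0.001, a prior of 0.25 reads on average, and the library sizes, which the authors had scaled by factors with means of 0.828 in anti-miR-106b and 0.845 in scrambled muscles at day 7, and of 1.28 in anti-miR-106b and 1.12 in scrambled muscles at day 3.

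The deposited log2 values were fitted with limma 3.58.1 (R 4.3.3), with 1 mean for each group, a spread shared by the 12 libraries and a prior variance that depends on expression (8 residual degrees of freedom). The 14063 genes at or above 1 CPM in at least 3 libraries were tested, two-sided, with Benjamini-Hochberg adjustment over all of them and a threshold of 0.05. An exact permutation test of 3 against 3 cannot go below 0.1 and was not used. The method was tested on simulated data of 13771 genes. At day 3 it recovered 58.1% of 105 genes changed by 0.5 and 98.9% of 92 genes changed by 1 (log2). Every simulated gene had the same spread beyond counting error, and no difference between the days was put in. There were 7 false calls at day 3 and 110 between the days. In the data 35.7% of genes passed at day 3, so these rates do not give the power there. Differences between libraries of a group are between animals, per the series' design text. Named list genes were the up to 4 of each list with the smallest p at day 3 and over time. Named like genes were the 10 nearest to the mean profile and 3 each for Aplnr and Pcdh12. The members and the lists were chosen with earlier results of these data known. Gene positions and 3′ UTRs came from GENCODE M21 (GRCm38, the assembly of mm10). Alternatives in filter, added CPM, scaling, weights, replicate block and libraries left out were tried. The counting SD of a member was taken as that of a Poisson count on the log2 scale, and covers counting error only.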

Additional observations from a re-analysis of the deposited data

Results flagged for a closer look

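For 4 genes all anti-miR-106b muscles were above all scrambled muscles at day 3 and below all of them at day 7. The difference between the arms at day 7 minus that at day 3 was -0.90 for Aplnr, -0.89 for Eng, -0.77 for Emcn and -0.65 for Pecam1 (log2). This change was not tested, because the day 7 values chose Aplnr and Pcdh12. At day 3 each of the 4 passed on its own, against 16.3% of all genes that passed as higher. Aplnr alone of them had been chosen on its day 7 value. The share of all genes that reverse in this way was not counted. Taken singly, 31.2% of all genes were apart with the inhibitor higher at day 3, and 5.69% with it lower at day 7.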

How the results depend on the processing

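Over the alternatives for the 10 members, 199 day 3 results kept their direction and side of the threshold, 20 came to pass and 1 turned; over time 203 kept both, 2 no longer passed and 5 turned. Scaling by total reads turned 6 values: Pcdh12 at day 3 to 0.036, and over time Pecam1 to -0.13, Cdh5 to -0.035, Emcn to -0.23, Tek to -0.035 and Aplnr to -0.25; it left 2 members higher and 4 lower at day 7, and Tie1 (0.06) and Flt1 (0.16) no longer passed. Under this scaling the median of all genes was 0.20 at day 3 and -0.53 over time. Members passing as lower at day 3 were 1 with a 5 CPM filter, with 1 CPM added and with voom weights, 4 with library weights, 3 with the day 3 libraries alone and 2 with quantile normalization, chosen after seeing the data, and 0 to 1 with a library left out. With the day 3 libraries alone the members passing as lower were Tek, Kdr and Flt1, and Pcdh12 joined them with library weights. The cause was not tested. Genes called at day 3 numbered 5022, 8820 with library weights and 3488 to 5673 with a library left out. The day 7 median of the members was -0.38, from -0.41 to -0.33 with a library left out. Residuals of libraries with the same replicate number had correlations of -0.18 to 0.14, so the numbers were not read as pairs; with a replicate block 4921 genes passed at day 3, 4 members rose and 0 fell, and no member's call changed. Depth limits Pcdh12 most: in anti-miR-106b muscles at day 3 (164 to 201 reads) its counting SD was 0.107 log2, above its SD between muscles of 0.066.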

Other observations

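Rgcc, a regulator of the cell cycle that is abundant in capillary endothelium, had the highest day 7 difference of the 10 venous and capillary genes, of which 7 were below 0. Its mean level was 6.46 log2 CPM in anti-miR-106b muscles and 5.43 log2 CPM in scrambled muscles, a difference of 1.04 with no overlap, while the median of the list was -0.10. It was named after its values were seen, and the difference is given as a description.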
